A study of Homo sapiens with 6 samples.

Results

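The transcripts of 10 transcription factors of T-cell acute lymphoblastic leukemia (T-ALL) were followed in Jurkat cells exposed to bisphenol AF. The members were TAL1, LMO2, GATA3, RUNX1, MYB, NOTCH1, HES1, MYC, TCF7 and LEF1, found by gene symbol among the 60856 features of the deposited tables, and all 10 had a row. Jurkat is an established human T lymphocyte line grown from a T-cell leukemia, so each group is 1 line. Bisphenol AF (BPAF) is a fluorinated analogue of bisphenol A used in polymer manufacture. Messenger RNA was sequenced from 3 libraries of wild-type Jurkat cells given 1 µM BPAF and 3 given 0.1% dimethyl sulfoxide (DMSO), the vehicle. The vehicle content of the BPAF medium is not stated in the labels, and the exposure is given as 12 h in one label and as 24 h in the treatment protocol. The 3 libraries of a group are biological replicates, according to the design text.

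Normal T-cell precursors silence TAL1, a basic helix-loop-helix protein, whereas many T-cell leukemias switch it on. TAL1 then pairs with an E protein (TCF3 or TCF12), is bridged to the adaptor LDB1 by an LMO protein, and sits on DNA beside GATA3, RUNX1 and MYB, which together keep their own genes and that of TAL1 active. NOTCH1 is a cell surface receptor that is cut upon ligand binding, and its inner part joins RBPJ in the nucleus to switch on HES1 and MYC. MYC pairs with MAX on E-box sequences of genes for ribosome assembly, nucleotide synthesis and glycolysis. TCF7 and LEF1 bind DNA for the WNT pathway, with β-catenin as their partner, and both act in early T-cell development.

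The 6 libraries held 20253656 to 22617613 counts in BPAF and 20745097 to 22117976 counts in DMSO (two-sided exact permutation p = 0.9). Features above 0 numbered 23404 to 23808 in BPAF libraries and 22712 to 23141 in DMSO libraries (exact permutation p = 0.1, the smallest that 3 against 3 allows). The 21 T-cell markers summed to 4756 to 4918 TPM in BPAF and 4602 to 4871 TPM in DMSO, so the labelled cell type was there in both groups, and 0 of the 21 passed the test described in the next paragraph. TPM is the abundance scaled for gene length that the authors deposited. B-cell markers summed to 20.04 to 23.2 TPM in BPAF and 21.5 to 25.03 TPM in DMSO, nearly all of it CD79A. Myeloid markers were at 1.4 to 2.25 TPM in BPAF and 1.34 to 2.16 TPM in DMSO. Fibroblast markers were at 1.03 to 1.81 TPM in BPAF and 1.32 to 1.5 TPM in DMSO, with COL3A1, DCN and LUM at 0 in every library. Erythroid markers, which were globin transcripts, summed to 93.1 to 128 TPM in BPAF and 113 to 119 TPM in DMSO. Epithelial markers summed to 1.21 to 1.47 TPM in BPAF and 0.52 to 0.68 TPM in DMSO, mostly KRT8, with EPCAM, KRT19 and CDH1 at 0.

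Differences between BPAF and DMSO were tested in 15490 genes with the quasi-likelihood test of edgeR, and a gene was called when its Benjamini-Hochberg adjusted p was under 0.05. The background was 938 genes called, or 6.06% of those tested, of which 411 (2.65%) were higher and 527 (3.4%) lower in BPAF. None of the T-ALL factors passed: 0 of the 9 tested members were called higher and 0 lower. LMO2 had too few counts for a test. Unadjusted p was under 0.05 for 2 of 9 members, MYC and MYB, against 19.9% of all genes. BPAF and DMSO libraries did not overlap in 2 of 9 members, TAL1 and MYB, against 24.8% of all genes. DESeq2 with its own filter on low counts called 0 of the 9, against 5.96% of the 11586 genes it kept (2.32% higher, 3.63% lower). DESeq2 without that filter called 0 of the 9, against 4.07% of all genes (1.66% higher, 2.41% lower), and limma-voom 0 of the 9, against 5.73% of all genes (2.49% higher, 3.25% lower). In bulk RNA, fewer cells that make a transcript and less of it per cell cannot be told apart.

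In the edgeR fit, the size of a change in these factors was bounded closely, except in HES1. Log2 fold changes, BPAF over DMSO, ran across the 9 members between -0.087 and 0.059, with a median of 0.011 beside a median of 0.00192 over all 15490 genes. Leaving HES1 aside, every 95% interval lay between -0.19 and 0.12 on that scale. On log2(TPM + 1) in limma, RUNX1 read 0.14, beside a median of 0.078 over all genes. The called genes had a median absolute log2 fold change of 0.21. The member intervals without HES1 thus end short of that value on either side, and that of HES1 runs past it. Called genes also lie below that median, so smaller changes of called genes are not bounded out. ALDH1A2 (-0.12) and SKP1 (-0.10), described below, were called at sizes inside the intervals of MYC, MYB and GATA3.

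**Figure D1:**
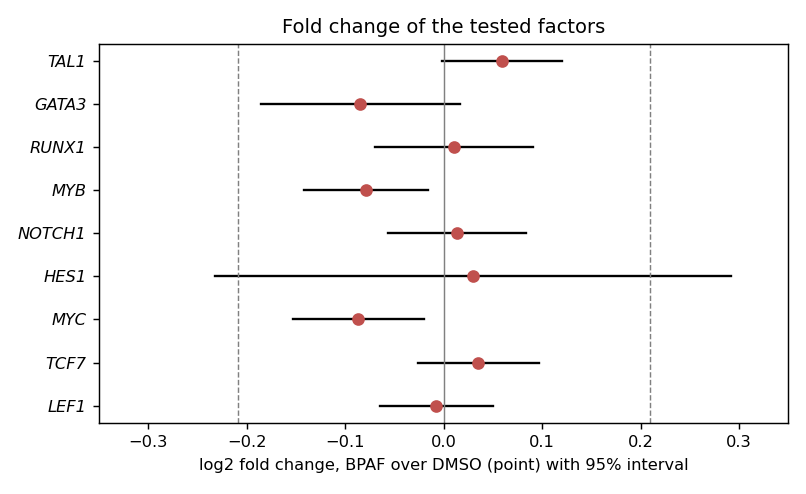
Log2 fold change, BPAF over DMSO (horizontal axis), of the 9 tested factors from 3 libraries per group, with bars for 95% intervals and dashed lines at plus and minus the median absolute log2 fold change of all called genes, 0.21. MYC and MYB have intervals below 0, that of HES1 is the widest, and 0 of 9 passed the adjusted test.

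Per length, the factors spanned a wide range of levels in the same order in BPAF and DMSO, apart from neighbours whose ranges overlapped. LEF1 stood highest, at 655 ± 5.1 TPM in BPAF and 625 ± 27.2 TPM in DMSO (SD, n = 3 libraries each, as in all means given here). MYC came next at 361 ± 7.17 TPM in BPAF and 367 ± 25.3 TPM in DMSO. TCF7 and MYB followed with overlapping ranges over the 6 libraries, 251.1 to 289 TPM for TCF7 and 251.2 to 276 TPM for MYB. RUNX1 ranged over 146 to 176 TPM and TAL1 over 82.3 to 92.8 TPM, neither touching its neighbours. NOTCH1, at 26.7 to 30.9 TPM, and GATA3, at 25.3 to 27.7 TPM, could not be ordered. HES1 was low at 7.37 to 9.19 TPM, and LMO2 did not exceed 0.05 TPM. The 10 genes together took 0.327% to 0.336% of counts in BPAF libraries and 0.323% to 0.329% in DMSO libraries.

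**Figure D2:**
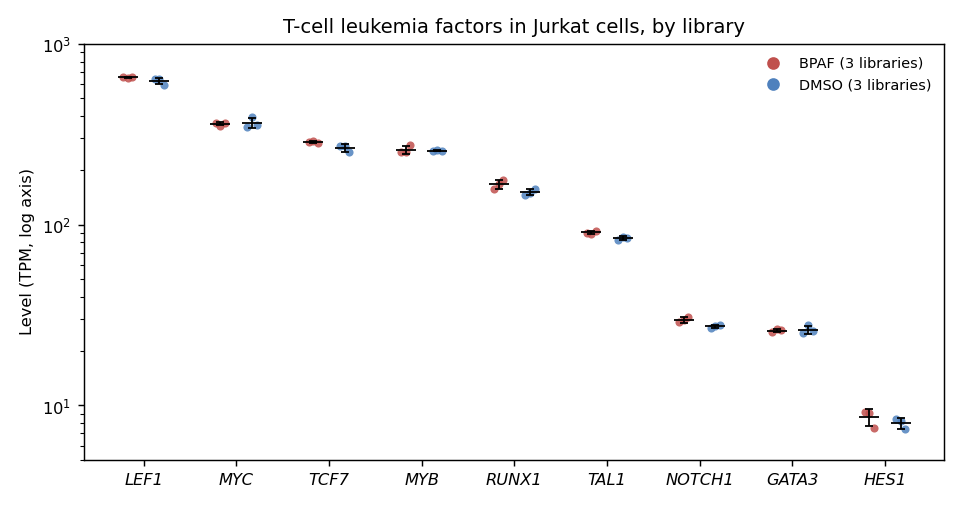
Deposited TPM (vertical log axis) of the 9 factors with measurable transcript in each BPAF library (left of each pair) and each DMSO library (right), with bars for the mean ± SD of 3 libraries. LEF1 lies at 593 to 660 TPM and HES1 at 7.37 to 9.19 TPM, and the difference between genes is far wider than that between the groups.

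TAL1 (ENSG00000162367; chromosome 1, 47216290 to 47232220, minus strand, GRCh38) is the oncogene at the centre of this circuit. It had 317, 318 and 324 CPM (counts scaled by TMM to a common library total) in the BPAF libraries and 306, 299 and 316 CPM in the DMSO libraries. All 3 BPAF values lay above all 3 DMSO values, by a narrow margin. Its log2 fold change was 0.059 ± 0.029 (SE), with a 95% interval of -0.0016 to 0.12 and an adjusted p of 0.266 by edgeR. In TPM, too, the groups stood apart, at 90.3, 89.3 and 92.8 in BPAF and 82.3, 85.8 and 84.96 in DMSO. Deposited TPM was shifted up in BPAF over all genes, by a median of 0.078 on log2(TPM + 1). There TAL1 had a log2 fold change of 0.10 (adjusted p = 0.256 by limma). The deposited counts of TAL1 held decimals in 6 of 6 libraries, and AL135960.1, a gene known by its clone name, overlaps it on the opposite strand. AL135960.1 had 229, 171 and 240 counts in BPAF and 199, 199 and 149 in DMSO. The libraries were strand-specific per the labels, while the sources used here do not give whether counting used the strand.

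LMO2 (ENSG00000135363), the LIM-only adaptor found in many TAL1-positive leukemias, had 0, 1 and 0 counts in BPAF libraries and 0, 0 and 0 in DMSO libraries. A count of 0 allows up to 3 counts, or 0.131 to 0.147 CPM per library, and no fold was computed. LMO1 (ENSG00000166407), the paralogue that can take its place, was present at 7.26, 7.94 and 6.14 CPM in BPAF and 7.46, 7.10 and 6.77 CPM in DMSO. Its groups overlapped, with a log2 fold change of -0.0025 ± 0.13.

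GATA3 (ENSG00000107485; chromosome 10, 8045378 to 8075203, plus strand) is the zinc finger factor of T-cell and helper T-cell identity. Its level was 49.6, 52.2 and 49.2 CPM in BPAF and 51.9, 55.3 and 52.9 CPM in DMSO. The groups overlapped through the second BPAF library, and the log2 fold change was -0.085 ± 0.048 (95% interval -0.19 to 0.016, adjusted p = 0.352). RUNX1 (ENSG00000159216; chromosome 21, 34787801 to 36004667, minus strand), a runt-domain factor of blood cell formation, measured 604, 609 and 656 CPM in BPAF and 597, 607 and 652 CPM in DMSO. The spread within each group, with SD of 28.8 CPM in BPAF and 29.5 CPM in DMSO, exceeded the difference of the means. RUNX1 had a log2 fold change of 0.011 ± 0.038 (95% interval -0.070 to 0.091, adjusted p = 0.925).

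MYB (ENSG00000118513; chromosome 6, 135181315 to 135219173, plus strand) sustains immature blood cells and is known to bind TAL1 enhancers in leukemia. It measured 466, 463 and 494 CPM in BPAF libraries and 495, 497 and 510 CPM in DMSO libraries. The highest BPAF library sat just under the lowest DMSO library. MYB had a log2 fold change of -0.079 ± 0.030 with a 95% interval of -0.14 to -0.016, and the adjusted p of 0.134 did not pass. When each library was left out in turn, the adjusted p ran between 0.0632 and 0.411. In TPM the MYB groups overlapped, at 252, 251.2 and 276 in BPAF and 254, 259 and 257 in DMSO.

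The other parts of the TAL1 complex gave no call. Of 24 listed partners, 21 were tested and 0 were called, with a median log2 fold change of -0.0025. The E proteins TCF3 and TCF12, which pair with TAL1, measured 333 ± 1.65 and 338 ± 5.68 CPM in BPAF and 335 ± 3.98 and 347 ± 4.85 CPM in DMSO. The smallest p in the list belonged to SSBP2, an LDB1-binding protein, at 141 ± 2.71 CPM in BPAF and 151 ± 0.752 CPM in DMSO. It had a log2 fold change of -0.10 ± 0.032 and an adjusted p of 0.0598. LDB1, the bridging adaptor, had a log2 fold change of 0.065 ± 0.032 and an adjusted p of 0.273.

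Among 10 known targets of the TAL1 circuit, 1 was called lower and 0 higher, beside 3.4% and 2.65% of all genes. The median log2 fold change was -0.052. ALDH1A2, a retinaldehyde dehydrogenase, fell to 391, 391 and 360 CPM in BPAF, against 420, 416 and 400.3 CPM in DMSO. That was a log2 fold change of -0.12 ± 0.033 (adjusted p = 0.0443), with no overlap between groups. DESeq2 gave an adjusted p of 0.0443 with its own filter and 0.0572 without it. The call was lost in 4 of 6 fits that left out a library, with adjusted p of 0.0843 without the first and 0.22 without the third BPAF library, and 0.185 without the first and 0.105 without the second DMSO library. CD69, an early activation marker, had 11.2 ± 0.498 CPM in BPAF and 13.9 ± 0.657 CPM in DMSO, with a log2 fold change of -0.30 ± 0.091 and an adjusted p of 0.0530.

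ID proteins lack a DNA-binding region and trap the E proteins that TAL1 needs. Of 4 ID genes, 3 were tested, and ID1 was called higher, beside 2.65% of all genes. ID1 (ENSG00000125968) rose to 19.4, 22.7 and 18.4 CPM in BPAF, against 13.3, 16.7 and 15.5 CPM in DMSO, with every BPAF library above every DMSO library. This was a log2 fold change of 0.41 ± 0.095 (adjusted p = 0.0154), and DESeq2 gave adjusted p of 0.0131 with its own filter and 0.0172 without it. The edgeR call was lost without the first BPAF library (0.0506), the second BPAF library (0.0682) or the first DMSO library (0.0963), each an adjusted p. ID2, at 2.07 ± 0.288 CPM in BPAF and 1.86 ± 0.247 CPM in DMSO, and ID3, at 38.8 ± 0.515 CPM in BPAF and 39.7 ± 1.86 CPM in DMSO, did not pass.

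NOTCH1 (ENSG00000148400; chromosome 9, 136494433 to 136545786, minus strand) measured 155, 162 and 163 CPM in BPAF and 154, 159.9 and 161 CPM in DMSO. The groups overlapped almost fully. NOTCH1 had a log2 fold change of 0.013 ± 0.034, with a 95% interval of -0.057 to 0.083 and an adjusted p of 0.885. HES1 (ENSG00000114315; chromosome 3, 194136145 to 194138732, plus strand), the repressor that NOTCH1 switches on, had 178, 173 and 155 counts in BPAF and 180, 158 and 144 in DMSO. That came to 8.23, 8.48 and 6.75 CPM in BPAF and 8.24, 7.68 and 7.02 CPM in DMSO. Its log2 fold change of 0.029 ± 0.13 had a wide 95% interval, -0.23 to 0.29 (adjusted p = 0.940), since the counts were low.

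The receptors, ligands and processing enzymes around NOTCH1 gave few calls. Of 8 other ligands and receptors, 6 were tested and 0 called. NOTCH2 had 77.6 ± 2.66 CPM in BPAF and 73.1 ± 3.02 CPM in DMSO (adjusted p = 0.294). DLL3, a ligand-like protein, had 3.63 ± 0.541 CPM in BPAF and 4.01 ± 0.17 CPM in DMSO (adjusted p = 0.723). Of 24 genes for cleavage and the nuclear complex, 23 were tested, 1 was called lower and 0 higher, beside 3.4% and 2.65% of all genes. APH1A, a subunit of the γ-secretase that frees the inner part of NOTCH1, fell to 108, 106 and 105 CPM in BPAF, against 116, 116 and 126 CPM in DMSO. The groups did not overlap, and the log2 fold change was -0.17 ± 0.039 (adjusted p = 0.0142). That call was lost without the third BPAF library (adjusted p = 0.0667) or the third DMSO library (adjusted p = 0.0670). PSEN2, a catalytic γ-secretase subunit, had 2.77 ± 0.299 CPM in BPAF and 1.66 ± 0.187 CPM in DMSO, with a log2 fold change of 0.74 ± 0.22 and an adjusted p of 0.0544.

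Of 12 other NOTCH targets, 11 were tested and 1 was called, HES4, which was higher, beside 2.65% of all genes called higher. HES4 (ENSG00000188290; chromosome 1, 998962 to 1000172), a repressor of the HES family, rose to 27.0, 31.9 and 27.0 CPM in BPAF, against 19.4, 22.1 and 23.5 CPM in DMSO. Each BPAF library exceeded each DMSO library, also in TPM, with 45.8, 52.4 and 43.7 in BPAF and 30.2, 36.3 and 34.4 in DMSO. This gave a log2 fold change of 0.40 ± 0.082, or a fold of 1.32 (95% interval 1.17 to 1.49), with an adjusted p of 0.00729 in edgeR. DESeq2 gave adjusted p of 0.00287 with its own filter and 0.00379 without it. Without the first DMSO library the adjusted p was 0.0509. With an edgeR offset for exon length and GC content, added after the values were seen, the log2 fold change was 0.19 with an adjusted p of 0.0823. Counts of HES4 held decimals in every library. DTX1, a ubiquitin ligase induced by NOTCH, measured 97.4 ± 2.98 CPM in BPAF and 92.1 ± 2.58 CPM in DMSO (adjusted p = 0.257). NRARP, the feedback inhibitor of the NOTCH complex, was low, at 0.552 ± 0.0961 CPM in BPAF and 0.864 ± 0.32 CPM in DMSO (adjusted p = 0.396).

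The promoters of the called HES4 and the uncalled HES1 are printed because they carry the same motif close to the start of the gene. The motif searched was GTGGGAA, a core of RBPJ sites, on both strands, so TTCCCAC as well. It was present in 6.25% of 35116 RefSeq windows of 300 bases (GRCh38.p14). Of HES1 and the 12 other targets, 11 had a window and 5 of these held the motif, HES1, HES4, HES5, HEY2 and HEYL. A gene was counted when any of its windows held the motif, whereas the 6.25% is a share of single windows. The 250 bases before the RefSeq start are given 5′ to 3′ on the strand of the gene, with the motif in capitals, for HES4 at chr1:1000098-1000347 (minus strand) and HES1 at chr3:194135898-194136147 (plus strand).
HES4: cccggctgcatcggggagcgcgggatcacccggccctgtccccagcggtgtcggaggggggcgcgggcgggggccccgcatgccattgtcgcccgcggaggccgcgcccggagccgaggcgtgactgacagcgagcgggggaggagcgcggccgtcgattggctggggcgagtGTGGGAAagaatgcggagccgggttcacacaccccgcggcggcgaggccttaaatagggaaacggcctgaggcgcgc
HES1: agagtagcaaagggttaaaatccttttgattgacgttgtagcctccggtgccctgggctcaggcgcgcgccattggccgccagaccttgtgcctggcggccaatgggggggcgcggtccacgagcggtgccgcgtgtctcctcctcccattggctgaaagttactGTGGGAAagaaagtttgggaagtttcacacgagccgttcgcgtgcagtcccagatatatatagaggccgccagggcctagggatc
The motif begins 77 bases before the start in HES4 and 85 bases before it in HES1, and the 12-base run tGTGGGAAagaa around it is the same in both. Both distances are from the RefSeq start. The GENCODE 29 gene of HES4 begins at 1000172, within the printed stretch, and the motif spans that start. A match of letters is a description of the window and not evidence of binding in these cells.

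**Figure D3:**
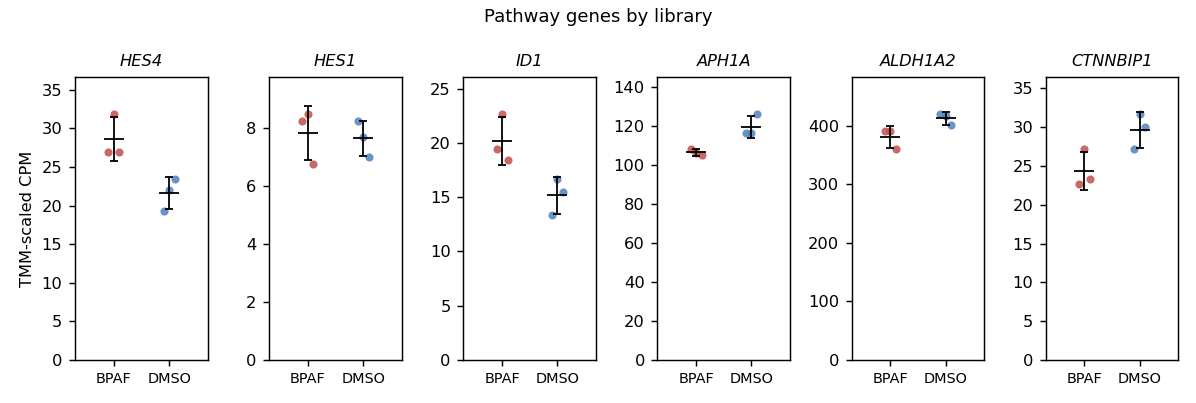
TMM-scaled CPM (vertical axes, each starting at 0) of HES4, HES1, ID1, APH1A, ALDH1A2 and CTNNBIP1 in 3 BPAF libraries (left) and 3 DMSO libraries (right), with bars for the mean ± SD. HES4 and ID1 are higher in every BPAF library, APH1A, ALDH1A2 and CTNNBIP1 lower, and HES1 overlaps.

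MYC (ENSG00000136997; chromosome 8, 127735434 to 127741434, plus strand) measured 458, 478 and 463 CPM in BPAF and 471, 512 and 502 CPM in DMSO. The second BPAF library lay above the first DMSO library, so the groups overlapped. MYC had a log2 fold change of -0.087 ± 0.032, a fold of 0.942 (95% interval 0.899 to 0.986), and the adjusted p of 0.120 was the smallest of the 9 members without passing. With each library left out in turn the adjusted p of MYC lay between 0.0597 and 0.386. In TPM it read 364, 353 and 367 in BPAF and 349, 396 and 355 in DMSO, where no separation was visible. With the offset for exon length and GC content, MYC and MYB were both called lower, at log2 fold changes of -0.12 (adjusted p = 0.0266) and -0.097 (adjusted p = 0.0433). Over all 15122 genes that fit called 1003 lower, and its median log2 fold change was -0.028. At an unadjusted edgeR p under 0.05 it had 2440 genes lower and 959 higher, against 1626 and 1450 without the offset. The genes with the profile closest to that of MYC over the 6 libraries were DHX40, RFX5 and NUB1, with root mean square differences of 0.0126, 0.0143 and 0.0147 in log2 CPM. None of these passed the test, with adjusted p of 0.221 for DHX40, 0.285 for RFX5 and 0.269 for NUB1.

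Genes that MYC is known to activate were often lower in BPAF. Of 30 listed targets, all 30 were tested, 12 were called lower and 1 higher, beside 3.4% and 2.65% of all genes. Their median log2 fold change was -0.089, and 28 of 30 lay below 0. DESeq2 called 11 lower with its own filter and 9 without it, 0 higher in either, and limma-voom 12 lower and 1 higher. NPM1, GNL3 and other genes of this list were already known to be lower in these libraries when the list was drawn up, so the count is a description.

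NPM1 and GNL3 had the smallest adjusted p of the 30 targets. NPM1 (ENSG00000181163), the nucleolar chaperone nucleophosmin, fell to 1462, 1487 and 1448 CPM in BPAF, against 1645, 1641 and 1758 CPM in DMSO. The groups lay well apart, with a log2 fold change of -0.20 ± 0.030 and an adjusted p of 0.000875. GNL3, or nucleostemin, fell to 269, 270.4 and 272 CPM in BPAF, against 293, 303 and 308 CPM in DMSO (log2 fold change -0.15 ± 0.029, adjusted p = 0.00328). NPM1 and GNL3 were the targets that passed in all 6 fits with a library left out. NOP16, a ribosome assembly protein, was lower by a log2 fold change of -0.20 ± 0.053 (adjusted p = 0.0297). Other nucleolar targets did not pass, with log2 fold changes of -0.029 in NCL, -0.059 in FBL, -0.063 in NOP56 and -0.089 in NOP58 (adjusted p = 0.611, 0.288, 0.182 and 0.0829).

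The remaining called targets have roles in growth, metabolism and the genome. TFRC, the transferrin receptor, fell to 382 ± 6.75 CPM in BPAF, against 425 ± 21.8 CPM in DMSO (log2 fold change -0.15 ± 0.033, adjusted p = 0.00948), and the call was lost without the first BPAF library (adjusted p = 0.0711). ODC1, which starts polyamine synthesis, fell to 373 ± 4.75 CPM in BPAF, against 402 ± 17.3 CPM in DMSO (adjusted p = 0.0431). The glycolytic enzymes LDHA and ENO1 fell by 0.11 and 0.12 on the log2 scale, and the nucleoside diphosphate kinase NME1 by 0.17. EIF4E, the cap-binding protein, PHB1, a mitochondrial scaffold, APEX1, a DNA repair enzyme, and PTMA, prothymosin alpha, fell by 0.13, 0.12, 0.098 and 0.090 on that scale. NPM1, PTMA, ENO1, LDHA and EIF4E have processed pseudogene copies, and NME1 shares exons with a readthrough transcript, so their counts could be divided among loci. TERT, the telomerase catalytic subunit, was the target that rose, to 30.4 ± 1.01 CPM in BPAF, against 26.0 ± 1.57 CPM in DMSO (log2 fold change 0.22 ± 0.064, adjusted p = 0.0432), without a call in DESeq2 (adjusted p = 0.104 with its own filter, 0.131 without it).

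The count of MYC targets called lower moved with single libraries, as did the count over all genes. Of the other targets named as lower, LDHA, ENO1 and PHB1 kept the call in 3 of 6 fits with a library left out, NOP16 and NME1 in 2 of 6, and ODC1 and APEX1, like TERT, in 1 of 6. PTMA and EIF4E kept it in 0 of 6. The largest adjusted p came without the first BPAF library in LDHA (0.178), ODC1 (0.200), APEX1 (0.177), NME1 (0.105), ENO1 (0.0812), PTMA (0.249) and TERT (0.193). It came without the third BPAF library in NOP16 (0.155) and PHB1 (0.139), and without the third DMSO library in EIF4E (0.131). The number of MYC targets called lower was 2 without the first, 9 without the second and 4 without the third BPAF library. It was 4 without the first, 9 without the second and 7 without the third DMSO library. Calls lower over all genes fell from 527 to 175 without the first and 227 without the third BPAF library. They fell to 270 without the first DMSO library and ran from 175 to 541 over the 6 fits. On log2(TPM + 1) in limma, 0 of 30 targets were called and their median log2 fold change was 0.023, beside a median of 0.078 over all genes and 1 call over all genes.

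**Figure D4:**
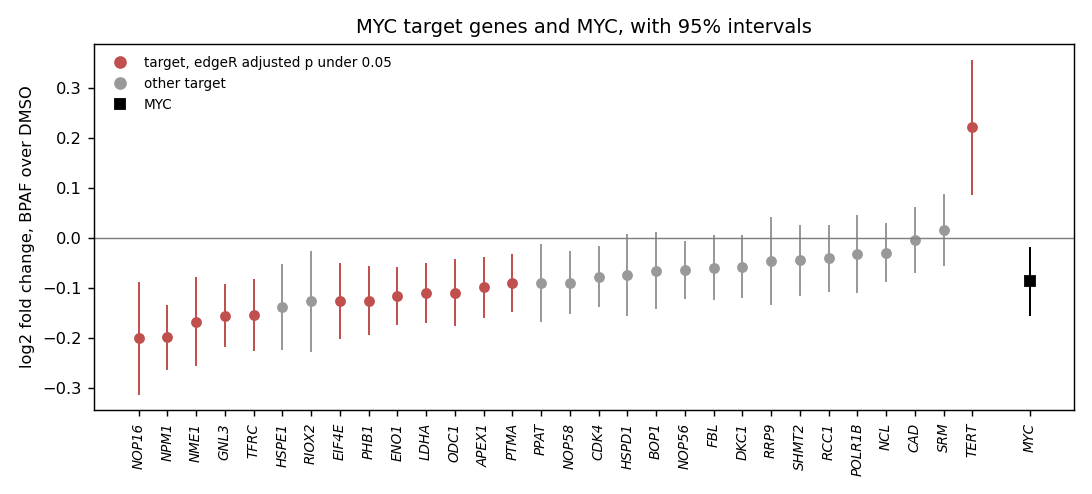
Log2 fold change, BPAF over DMSO (vertical axis), of 30 MYC targets in ascending order and of MYC itself (square), with bars for 95% intervals from 3 libraries per group. The 12 targets called lower, TERT, called higher, and 17 targets that were not called are told apart by colour, and MYC lies among the middle of the targets.

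The palindrome CACGTG, the E-box that MYC and MAX bind, was searched in the same promoter windows, of which 7.26% held it. Of the 30 targets, 26 had a window and 15 held the E-box in any of their windows, whereas the 7.26% is a share of single windows. Among those 15, 6 were called lower and 1 higher. Among the 11 without it, 6 were called lower and 0 higher. Median log2 fold changes were -0.090 with and -0.090 without the E-box. The short windows around the first E-box of the 6 targets that were called lower are shown so that the flanks can be compared. They are RefSeq sequence of GRCh38.p14, 5′ to 3′ on the strand of the gene, with the E-box in capitals.
ODC1: cgggccccgggCACGTGtgcggcgcgcc
LDHA: gactcccagcgCACGTGgagcagtctgc
NME1: gtgctgcgaacCACGTGggtcccgggc
EIF4E: tacccatcggcCACGTGaccagtccttt
APEX1: agcgtctccgtCACGTGgtgtcagacag
GNL3: gcttcagttcaCACGTGgcgccagcgga
These lie at chr2:10448025-10448052, chr11:18394367-18394394, chr17:51153582-51153608, chr4:98929342-98929369, chr14:20455110-20455137 and chr3:52686027-52686054, in the order printed, with ODC1 and EIF4E on the minus strand. The E-box begins 29 bases before the RefSeq start in ODC1, 185 before it in LDHA, 225 before it in EIF4E and 105 before it in APEX1, and lies 34 bases after it in NME1 and 6 after it in GNL3.

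Partners and antagonists of MYC itself gave no call, with 14 of 15 listed genes tested and a median log2 fold change of 0.0081. MYCBP, a MYC-binding protein, had the smallest p in this list, at 49.9 ± 3.57 CPM in BPAF and 56.2 ± 1.16 CPM in DMSO (log2 fold change -0.17 ± 0.053, adjusted p = 0.0616). MNT, a repressor that competes with MYC for MAX, measured 41.9 ± 1.32 CPM in BPAF and 38.2 ± 0.387 CPM in DMSO (log2 fold change 0.13 ± 0.052, adjusted p = 0.147). Both had groups that stood apart without passing the adjusted test.

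TCF7 (ENSG00000081059; chromosome 5, 134114711 to 134151865, plus strand) encodes TCF-1, which starts the T-cell programme. Its level was 497, 515 and 490.4 CPM in BPAF and 497, 495 and 474 CPM in DMSO, with overlapping groups. TCF7 had a log2 fold change of 0.035 ± 0.030 (95% interval -0.027 to 0.097, adjusted p = 0.569). TCF7 overlaps SKP1 on the opposite strand, a ubiquitin ligase subunit that was called lower (log2 fold change -0.10 ± 0.030, adjusted p = 0.0435). LEF1 (ENSG00000138795; chromosome 4, 108047545 to 108168956, minus strand) measured 676, 694 and 668 CPM in BPAF and 687, 689 and 672 CPM in DMSO. Its groups overlapped, and its log2 fold change was -0.0077 ± 0.028 (95% interval -0.065 to 0.050, adjusted p = 0.926).

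Of 20 cofactors and feedback genes of TCF and LEF, 17 were tested, with a median log2 fold change of 0.012. Among those 17, 1 was called lower and 0 higher, beside 3.4% and 2.65% of all genes. CTNNBIP1, an inhibitor that keeps β-catenin from TCF proteins, fell to 22.6, 27.2 and 23.3 CPM in BPAF, against 27.2, 31.7 and 30.0 CPM in DMSO. The highest BPAF library met the lowest DMSO library at nearly the same value. Its log2 fold change was -0.28 ± 0.076 (adjusted p = 0.0328), and the DESeq2 adjusted p was 0.0496 with its own filter and 0.0640 without it. On log2(TPM + 1) the sign turned, to 0.066, beside a median of 0.078 over all genes. The call held in 2 of 6 fits with a library left out. Its adjusted p was 0.171 without the first and 0.143 without the third BPAF library, and 0.115 without the second and 0.0898 without the third DMSO library. AXIN2, the feedback gene that WNT signalling raises, measured 10.4 ± 0.76 CPM in BPAF and 8.68 ± 0.903 CPM in DMSO, with a log2 fold change of 0.26 ± 0.11 and an adjusted p of 0.194.

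Other factors of the T lineage were not called, with 19 of 24 tested and a median log2 fold change of -0.0098. ELF1, an ETS factor of blood cells, measured 106 ± 4.74 CPM in BPAF and 114 ± 1.55 CPM in DMSO (adjusted p = 0.0847). FLI1, another ETS factor, measured 96.8 ± 2.76 CPM in BPAF and 103 ± 4.23 CPM in DMSO (adjusted p = 0.236). Of 14 factors linked to other forms of T-ALL, such as TLX1 and TLX3, 5 had enough counts for a test and 0 were called. PHF6, a chromatin protein lost in some T-ALL, had 119.6 ± 1.91 CPM in BPAF and 128 ± 1.85 CPM in DMSO (adjusted p = 0.0791). BHLHE23 had 10.2 ± 2.18 CPM in BPAF and 10.9 ± 0.729 CPM in DMSO (adjusted p = 0.755).

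**Figure D5:**
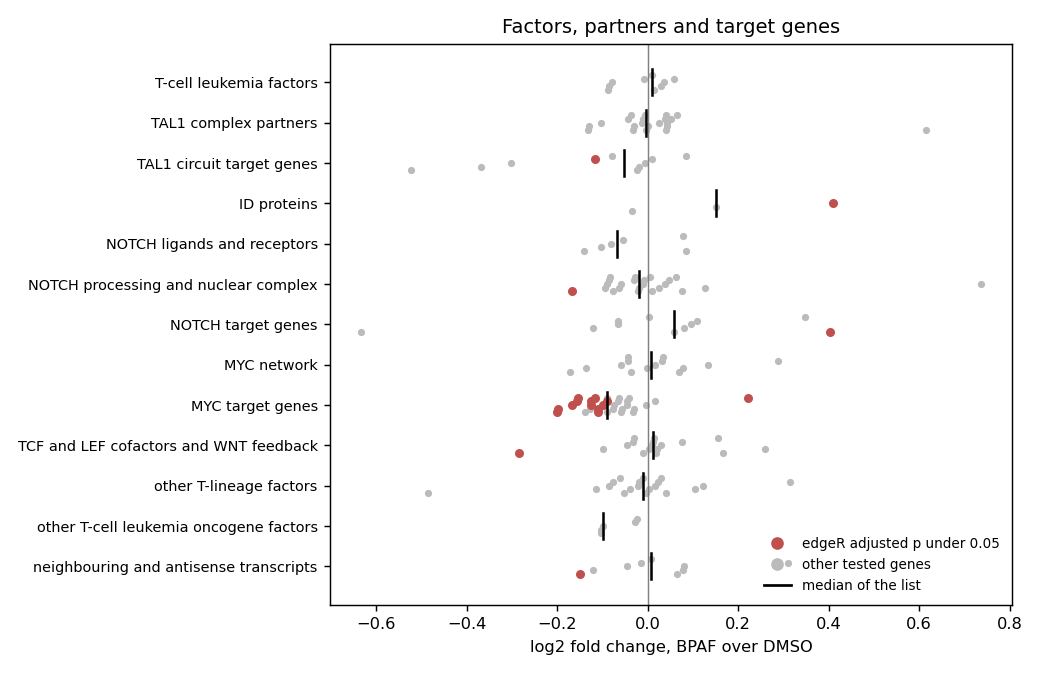
Log2 fold change, BPAF over DMSO (horizontal axis), of each tested gene (point) of the T-ALL factors and 12 related lists, with a vertical tick at the median of each list. Of 168 genes tested in the related lists, 19 were called, beside 6.06% of all tested genes, and 13 of those 19 are MYC targets.

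Genes beside the factors on the chromosome, and antisense transcripts, were read to see whether a locus moved as a whole. Of 14 symbols, 12 had a row, 9 were tested and 1 was called, beside 6.06% of all genes. HBS1L, a translation rescue factor next to MYB, fell to 122, 119 and 120.1 CPM in BPAF, against 131, 135 and 135 CPM in DMSO. The groups lay apart, the log2 fold change was -0.15 ± 0.034 (adjusted p = 0.0127), and the call held in 6 of 6 fits with a library left out. AHI1, on the other side of MYB, measured 35.7 ± 2.66 CPM in BPAF and 33.9 ± 0.58 CPM in DMSO (adjusted p = 0.518). Near TAL1, STIL had a log2 fold change of 0.0081 ± 0.042 and CMPK1 had -0.12 ± 0.037 (adjusted p = 0.0583). CAPRIN1, near LMO2, had a log2 fold change of -0.047 ± 0.029. The long noncoding RNA PVT1, next to MYC, measured 6.87 ± 0.466 CPM in BPAF and 6.50 ± 1.04 CPM in DMSO. NALT1, LEF1-AS1 and MYB-AS1 had adjusted p of 0.979, 0.873 and 0.774. PDZK1IP1 had 0, 0 and 0 counts in BPAF and 1, 0 and 3 in DMSO. GATA3-AS1 had 4, 1 and 1 counts in BPAF and 4, 4 and 2 in DMSO, and CASC11 had 2, 1 and 1 in BPAF and 0, 1 and 2 in DMSO.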

How the data were processed

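Polyadenylated RNA was read from strand-specific paired-end libraries, per the labels' protocols. FastQC, cutadapt, HISAT2 and featureCounts appear in the submitters' processing notes with the builds GRCh38 and hg38 and no versions. The authors deposited estimated counts per gene, of which 59.1% to 61.7% of the values above 0 were whole per library, and TPM values with equal sums in all libraries. The sources used here do not give how the decimals or the TPM arose.

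Counts were rounded. After filterByExpr and TMM scaling, edgeR 4.0.16 gave the quasi-likelihood test (R 4.3.3, robust dispersions, no covariate, 3 against 3 libraries), with Benjamini-Hochberg adjustment at 0.05. The SE is the absolute log2 fold change over the square root of F, and 95% intervals use the t distribution implied by F and p. Intervals and floors cover counting error and the spread between these libraries only. Alternatives used DESeq2 1.42.0, limma 3.58.1 on log2(TPM + 1) or log2(TPM + 0.1) and voom, other scalings and filters, a replicate block, omission of each library and, after the data were seen, an edgeR offset built from exon length and GC content (15122 genes). Library pairs of a group differed by more than sampling noise (chi-square over its degrees of freedom, 2.45 to 4.63), so none was counted as a duplicate. The biological coefficient of variation was 3.77%.

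On data simulated for BPAF over DMSO with 200 changed genes per fold size, edgeR recovered 69.5% of 1.2-fold changes among 15290 genes, 98% of 1.5-fold changes among 15301 genes and 100% of 2-fold changes among 15285 genes. False calls made up 6.08%, 2% and 5.21% of the calls, in that order. All genes were drawn with the same dispersion, and changed genes had a mean count of at least 50. The smallest simulated fold exceeded every member estimate, so recovery of changes as small as theirs was not measured.

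Members and the 12 related lists were chosen with earlier results of these data known. All members were named. From each list the called genes and the 2 with the smallest p were named, and for MYC, the member with the smallest p, the 3 genes closest in profile. TCF3, TCF12, LMO1, ID3, NRARP, NCL, FBL, NOP56 and NOP58 were added after their values were seen. Gene symbols were found for 42028 identifiers, and coordinates are of GENCODE 29 (GRCh38). Promoter windows are RefSeq (GRCh38.p14). Assembled loci without a gene identifier stayed in the tables and took 0.243% to 0.271% of counts per library.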

Additional observations from a re-analysis of the deposited data

How the results depend on the processing

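Of 9 tested T-ALL factors, 0 were called in the 17 alternatives, with 1 exception, the offset for exon length and GC content chosen after seeing the data, which called 2 lower. Over all genes, calls higher in BPAF numbered 411, against 269 and 257 in DESeq2 with and without its own filter, 1 on log2(TPM + 1), 2 on log2(TPM + 0.1) and 147 to 368 with a library left out. Calls lower in BPAF numbered 527, against 0 and 0 in limma on the TPM scales, 175 to 541 with a library left out and 1003 with the offset. On log2(TPM + 1), 2328 genes were higher and 377 lower at an unadjusted p under 0.05, and on log2(TPM + 0.1), 2305 and 370. The median log2 fold change of the 9 factors was 0.011, against 0.091 and 0.10 on the TPM scales (0.078 and 0.089 over all genes), -0.050 with the offset (-0.028 over all genes) and -0.024 to -0.0012 with a library left out. Calls in the related lists numbered 19, against 0 and 0 on the TPM scales and 5 to 15 with a library left out.

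Log2 fold changes turned sign with the offset in RUNX1 (-0.050), NOTCH1 (-0.039), HES1 (-0.037) and TCF7 (-0.0064), and with upper quartile scaling in LEF1 (0.0032). On log2(TPM + 1) and log2(TPM + 0.1) they turned in MYB (0.016, 0.016), LEF1 (0.069, 0.069), ID2 (-8.54e-06, -0.0041), LDHA (0.016, 0.016), PTMA (0.024, 0.024), EIF4E (0.027, 0.027), APEX1 (0.0050, 0.0050), TFRC (0.019, 0.019), CTNNBIP1 (0.066, 0.068), FLI1 (0.0046, 0.0047), ELF1 (0.025, 0.025), PHF6 (0.0083, 0.0085), CAPRIN1 (0.029, 0.030), AHI1 (-0.11, -0.12) and NALT1 (0.17, 0.22). With a library left out the range crossed 0 in RUNX1 (-0.029 to 0.048), NOTCH1 (-0.0087 to 0.036), HES1 (-0.033 to 0.13), LEF1 (-0.024 to 0.0035), BHLHE23 (-0.24 to 0.063), NALT1 (-0.081 to 0.093), PVT1 (-0.052 to 0.14) and STIL (-0.013 to 0.037). The median over all genes was 0.078 on log2(TPM + 1) and 0.089 on log2(TPM + 0.1). Of the genes listed as turning on these scales, all but NALT1 lay below that median. Less the median on log2(TPM + 1), MYB stood at -0.061 and LEF1 at -0.0081. With the offset the median over all genes was -0.028, with TCF7 above it and RUNX1, NOTCH1 and HES1 below it. With upper quartile scaling the median over all genes was 0.013, above LEF1. The cause of the turns in sign was not tested.

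Replicate numbers did not pair the libraries. Same-numbered libraries had correlations of deviations of -0.043 to 0.014, and 1 of 6 libraries correlated best with its own number. With the replicate block, 377 genes were called higher and 449 lower, 0 of the 9 factors, and 7 MYC targets lower in place of 12. At these depths the interval of HES1 spanned changes of the median size seen in called genes. Those of MYC, MYB and GATA3 spanned smaller called changes, such as that of ALDH1A2 (-0.12).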
